A study of Mus musculus with 12 samples.

Results

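The adult globin genes Hba-a1, Hba-a2, Hbb-b1, Hbb-b2, Hbb-bt and Hbb-bs were followed together with Ahsp, Car2 and Trim10, other genes of red cell formation, in mouse bone marrow progenitors that carried the leukemia rearrangement inv(3), the splicing-factor mutation Sf3b1 K700E, both or neither. Members were selected by gene symbol, from a list made with earlier results of these data known, and 8 of the 9 named genes were matched among 24411 gene rows. Ahsp, which codes for a chaperone of free alpha-globin, was not analysed here. All 8 passed the filter on low counts. RNA came from lineage-negative, cKit-positive marrow cells of femora and tibiae, a gate that holds stem cells and progenitors and from which maturing red cells are largely removed. The donors were CD45.2+ C57BL/6 mice with the pIpC-inducible Mx1-Cre transgene together with inv(3) and heterozygous Sf3b1 K700E (called double here), with inv(3), with heterozygous Sf3b1 K700E, or with Mx1-Cre alone (control), and each group had 3 libraries. All 4 groups thus carried Mx1-Cre, and all received 3 pIpC doses of 20 mg/kg beginning 4 weeks after transplantation and were harvested 6 months after pIpC. Donor marrow was mixed with wild-type CD45.1+ support marrow and given to lethally irradiated CD45.1+ recipients. The labels do not say if CD45.2+ cells were sorted away from recipient and support cells, nor if the replicates were taken from different mice, so p-values measure the spread between these libraries. The inv(3) rearrangement, known from human myeloid leukemia, places a GATA2 enhancer near EVI1 (Mecom in mouse), and the study concerns the splicing of EVI1 in such leukemia.

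Adult hemoglobin is a tetramer of a pair of alpha-globin and a pair of beta-globin chains, made from a cluster of alpha genes and a cluster of beta genes that are both switched on late in red cell formation by GATA1, KLF1 and distal enhancers. Because free chains of either kind precipitate and damage the cell, erythroid cells keep alpha and beta output close to balance. In the mouse, several adult copies of each gene lie side by side, and the C57BL/6 strain carries the beta copies Hbb-bs and Hbb-bt, whereas Hbb-b1 and Hbb-b2 are the names of the copies of another haplotype. In GRCm38.p6 (RefSeq), Hba-a1 lies on chromosome 11 at 32283672 to 32284486 and Hba-a2 at 32296492 to 32297310. Hbb-bt lies on chromosome 7 at 103812524 to 103813923 and Hbb-bs at 103826523 to 103827928. Car2 is on chromosome 3 at 14886269 to 14900770 and Trim10 on chromosome 17 at 36869496 to 36877833, and no coordinates are given here for the Hbb-b1 and Hbb-b2 rows.

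The 250 bases before the transcript start of an alpha gene and of both C57BL/6 beta genes are shown because these genes, which share a product, had different patterns across the groups. Capitals mark 4 motifs on either strand: CACCC (the core bound by KLF1-type factors), CCAAT (the core bound by NF-Y), TATAA (the TATA box) and GATAA (the core bound by GATA factors). Sequences are RefSeq GRCm38.p6, written 5′ to 3′ on the gene's strand; the windows are chr11:32283422-32283671 (plus strand) for Hba-a1, chr7:103827929-103828178 (minus strand) for Hbb-bs and chr7:103813924-103814173 (minus strand) for Hbb-bt.
Hba-a1: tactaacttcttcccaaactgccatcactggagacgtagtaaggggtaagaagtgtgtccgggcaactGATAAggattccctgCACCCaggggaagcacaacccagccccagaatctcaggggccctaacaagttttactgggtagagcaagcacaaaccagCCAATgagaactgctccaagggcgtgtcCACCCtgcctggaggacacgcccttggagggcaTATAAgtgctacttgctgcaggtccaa
Hbb-bs: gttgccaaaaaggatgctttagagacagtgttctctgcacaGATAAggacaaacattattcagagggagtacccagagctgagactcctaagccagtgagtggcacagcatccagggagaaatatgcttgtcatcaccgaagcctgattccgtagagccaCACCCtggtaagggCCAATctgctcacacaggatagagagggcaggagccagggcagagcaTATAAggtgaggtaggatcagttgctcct
Hbb-bt: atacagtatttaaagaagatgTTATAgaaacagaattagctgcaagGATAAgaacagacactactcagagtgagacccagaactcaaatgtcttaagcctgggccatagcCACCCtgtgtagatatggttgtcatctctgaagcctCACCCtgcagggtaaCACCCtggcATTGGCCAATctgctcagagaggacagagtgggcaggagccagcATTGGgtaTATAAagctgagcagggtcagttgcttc

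The Hbb-bt window held 3 CACCC matches, at 140, 104 and 89 bases before the start, where the Hbb-bs window held 1, at 90 bases. CCAAT was found 3 times before Hbb-bt, 1 of them on the gene's strand at 75 bases and adjoining an ATTGG on the other strand at 80 bases, and 1 time before Hbb-bs, at 76 bases. TATAA lay 28 bases before Hbb-bt and 29 bases before Hbb-bs on the gene's strand, and each window held 1 GATAA. Before Hba-a1 there were 2 CACCC matches and 1 match of each other motif. Among 32817 RefSeq mouse windows of the same length, 52.01% held CACCC, 33.83% CCAAT, 22.79% TATAA and 22.59% GATAA, so each motif is common and a match is a description only. The Hbb-bs and Hbb-bt windows were 69.26% identical when aligned, against 97.63% for the windows of Hba-a1 and Hba-a2.

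The transcripts themselves are far closer. In the GENCODE M21 annotation, the coding sequences of Hbb-bs and Hbb-bt differ at 1 of 444 bases, and their 3′ untranslated regions at 35 aligned positions and 5 gap positions. Hba-a1 and Hba-a2 differ at 1 of 429 coding bases, and their 3′ untranslated regions differ only by 16 gap positions. Reads from such copies cannot be placed with certainty, and the rows for Hbb-b2 and Hbb-bt held equal counts in 12 of 12 libraries, so these rows are 1 measurement. Each copy is therefore given with sums: Hba-a1 and Hba-a2 as alpha-globin, the 4 Hbb rows as beta-globin, and, chosen after seeing the data, Hbb-b1 with Hbb-bs and Hbb-b2 with Hbb-bt.

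Libraries held 73074797 to 86555638 expected counts, and replicates correlated at 0.986 to 0.9974 over genes with no pair identical. Kit, the receptor of the gate, averaged 457.5, 436.6, 428.9 and 455.4 CPM (normalized counts scaled to a common library size) in the double, inv(3), Sf3b1 K700E and control groups and was called in no comparison. Xist, the RNA of the inactive X chromosome, averaged 30.4 ± 8.997 CPM in double, 1952 ± 151 in inv(3), 159 ± 71.7 in Sf3b1 K700E and 32.9 ± 8.11 in control libraries (SD, n = 3 each), and 4 of 4 Y-linked genes were lower in inv(3) libraries than in control. The sex of the cells and the genotype therefore cannot be told apart in comparisons of the inv(3) group. Xist was also higher in Sf3b1 K700E than in control (log2 2.28 ± 0.35, adjusted p = 0.007), where no Y-linked gene was called. It was lower in double than in Sf3b1 K700E (log2 -2.39 ± 0.35, adjusted p = 0.00026). The part of the sex of the cells in comparisons of the Sf3b1 K700E group was not tested.

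Alpha-globin RNA was high in the Sf3b1 K700E group and low in the other 3. Expected counts of Hba-a1, the main alpha row, were 530, 465 and 495 in double libraries, 502, 619 and 881 in inv(3), 5608, 6716 and 4108 in Sf3b1 K700E, and 665, 852 and 944 in control libraries. All 3 Sf3b1 K700E libraries stood far above the rest, and the double libraries were lower than control with no overlap. Hba-a2 took 53, 53 and 142 counts in double, 48, 86 and 44 in inv(3) and 414, 579 and 285 in Sf3b1 K700E libraries, and it was listed at 0 in all 3 control libraries, so no fold is given against control. Its zeros stand beside many reads of its near-identical neighbor, and it is best read within the sum.

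Summed alpha-globin averaged 7.36 ± 0.913 CPM in double, 9.44 ± 2.10 in inv(3), 71.9 ± 22.7 in Sf3b1 K700E and 10.4 ± 1.49 in control libraries (SD, n = 3 each). Under edgeR's quasi-likelihood test over all 13755 tested genes, with Benjamini-Hochberg adjustment and a limit of 0.05, it was 6.94-fold higher in Sf3b1 K700E than in control (log2 2.79 ± 0.24 SE, adjusted p = 0.00091). It was 0.102 times as high in double as in Sf3b1 K700E libraries (log2 -3.29 ± 0.24, adjusted p = 1.9e-06). Neither the double group (log2 -0.49 ± 0.23, adjusted p = 0.12) nor the inv(3) group (log2 -0.13 ± 0.23, adjusted p = 0.68) passed the limit against control, and in a fit of only the 6 libraries compared the double group did (log2 -0.50, adjusted p = 0.014). Hba-a1 alone was called lower in double than in control (log2 -0.72 ± 0.23, adjusted p = 0.027), a call that ended without any of 5 single libraries (adjusted p up to 0.09). In such bulk libraries, fewer cells of a type and less RNA per cell cannot be told apart.

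Beta-globin RNA did not follow alpha-globin. The pair Hbb-b1 and Hbb-bs was highest in Sf3b1 K700E, like alpha-globin, whereas the pair Hbb-b2 and Hbb-bt was highest in the double group. How reads were split between these pairs also rests on uncertain placement, since the coding sequences of Hbb-bs and Hbb-bt differ at 1 base. The sum of all Hbb rows does not depend on that split. Expected counts of Hbb-b1 were 1716, 717 and 1082 in double, 661, 531 and 1061 in inv(3), 4654, 5823 and 3193 in Sf3b1 K700E and 216, 267 and 455 in control libraries. Every control library lay below the lowest library of each other group, and every Sf3b1 K700E library above the highest of each other group. Hbb-bs, the C57BL/6 copy, was assigned few reads: 62, 0 and 117 in double, 0, 0 and 51 in inv(3), 248, 666 and 279 in Sf3b1 K700E, and 56, 182 and 0 in control libraries. It was called in no comparison, with standard errors over 1 log2 unit for its changes against control in the inv(3) (log2 -2.21 ± 1.56, adjusted p = 0.29) and Sf3b1 K700E groups (log2 2.28 ± 1.31, adjusted p = 0.30). Since Hbb-b1 is the name of another haplotype's copy, its row and the Hbb-bs row are best read within their sum. The Hbb-bs row alone does not show that this copy is scarce or unchanged.

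Summed Hbb-b1 and Hbb-bs averaged 15.5 ± 5.94 CPM in double, 9.90 ± 3.37 in inv(3), 60.5 ± 22.6 in Sf3b1 K700E and 4.94 ± 1.19 in control libraries (SD, n = 3 each). The sum was 12.2-fold higher in Sf3b1 K700E than in control (log2 3.61 ± 0.39, adjusted p = 0.0041) and 3.12-fold higher in double than in control (log2 1.64 ± 0.37, adjusted p = 0.0049). It was 0.256 times as high in double as in Sf3b1 K700E (log2 -1.97 ± 0.36, adjusted p = 0.00098). Inv(3) against control gave log2 1.00 ± 0.37 (adjusted p = 0.054), just outside the limit although the groups did not overlap, and leaving out 1 library at a time gave adjusted p values between 0.035 and 0.18.

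The Hbb-b2 and Hbb-bt rows, with the same counts in each, held 3737, 3154 and 4641 in double, 1026, 2566 and 2709 in inv(3), 585, 865 and 464 in Sf3b1 K700E and 84, 93 and 111 in control libraries. These rows put the 4 groups in the order double, inv(3), Sf3b1 K700E and control, with no overlap between any neighbors in that order. Their sum averaged 97.9 ± 21.7 CPM in double, 54.8 ± 24.2 in inv(3), 15.6 ± 6.14 in Sf3b1 K700E and 2.43 ± 0.277 in control libraries (SD, n = 3 each). It was 40.3-fold higher in double than in control (log2 5.33 ± 0.44, adjusted p = 6e-06), 22.6-fold higher in inv(3) than in control (log2 4.50 ± 0.43, adjusted p = 2.4e-05) and 6.41-fold higher in Sf3b1 K700E than in control (log2 2.68 ± 0.42, adjusted p = 0.0073; log2 2.59 and adjusted p = 0.052 with limma-voom). Double libraries also had 6.29 times as much as Sf3b1 K700E libraries (log2 2.65 ± 0.37, adjusted p = 0.00018). Double against inv(3), a difference of log2 0.84 ± 0.35 in the same direction, was not called (adjusted p = 0.11).

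**Figure D1:**
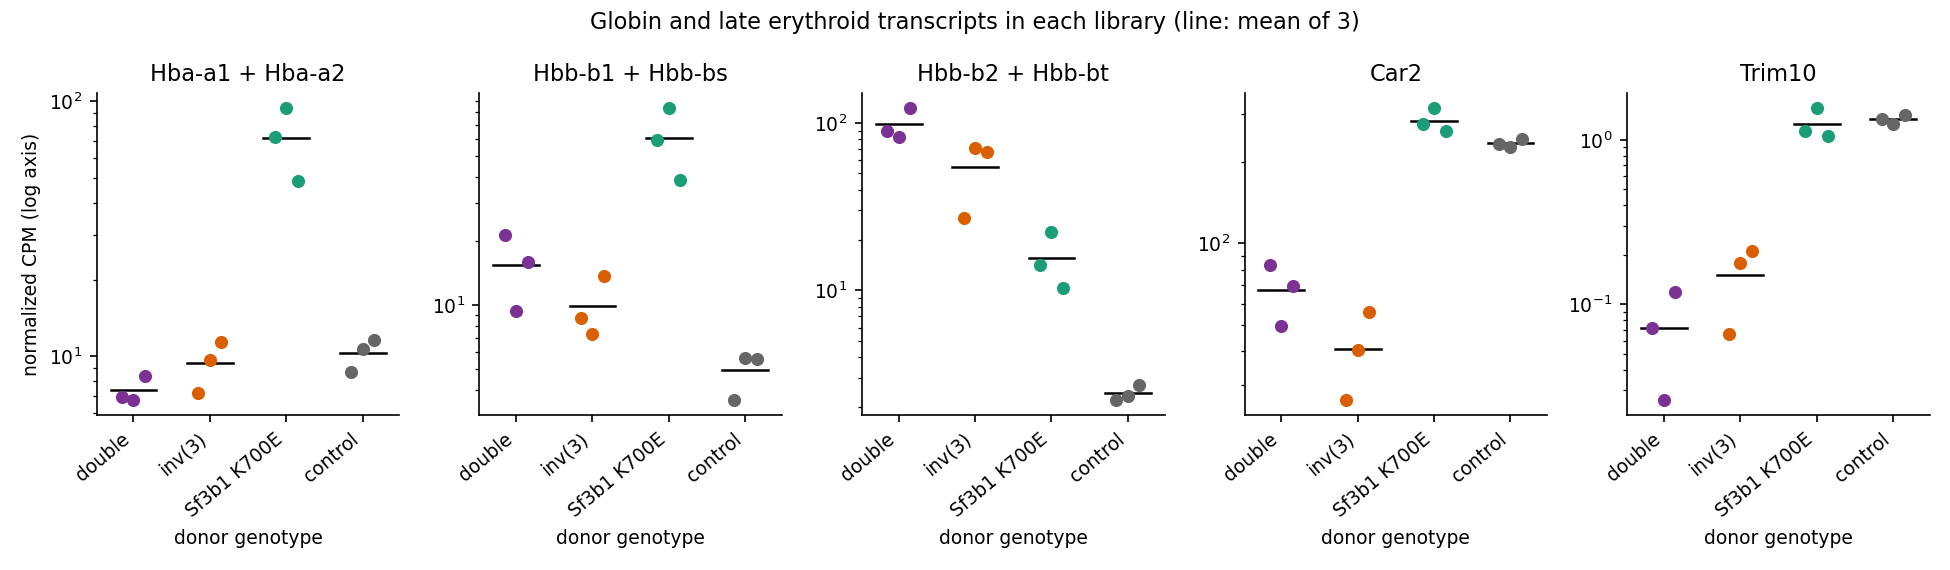
Normalized CPM (log axis, a scale of its own in each panel) of summed Hba-a1 and Hba-a2, summed Hbb-b1 and Hbb-bs, summed Hbb-b2 and Hbb-bt, Car2 and Trim10 in each library; points are the 3 libraries of a donor genotype and lines their mean. Alpha-globin averages 71.9 CPM in Sf3b1 K700E and 7.36 to 10.4 CPM in the other groups, Hbb-b2 and Hbb-bt run down from 97.9 CPM in double to 2.43 CPM in control, and Car2 and Trim10 are low in the double and inv(3) groups.

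When all 4 beta rows were summed, each group with a mutation lay above control with no overlap: 113 ± 23.7 CPM in double, 64.7 ± 25.2 in inv(3) and 76.1 ± 28.7 in Sf3b1 K700E, against 7.37 ± 1.39 CPM in control libraries (SD, n = 3 each). Summed beta-globin rose 15.4-fold in double (log2 3.94 ± 0.38, adjusted p = 1.8e-05), 8.77-fold in inv(3) (log2 3.13 ± 0.37, adjusted p = 9.9e-05) and 10.3-fold in Sf3b1 K700E libraries (log2 3.37 ± 0.37, adjusted p = 0.0044), each against the same control libraries. Double against Sf3b1 K700E gave log2 0.58 ± 0.33 (adjusted p = 0.17), and these groups overlapped. Over alpha and beta together, adult globin came to 121 ± 24.6 CPM in double, 74.1 ± 27.2 in inv(3), 148 ± 51.3 in Sf3b1 K700E and 17.7 ± 2.87 in control libraries.

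The makeup of adult globin RNA, compared per transcript length in TPM, parted the libraries by the inv(3) allele. Alpha-globin was 6.92%, 7.999% and 6.68% of adult globin TPM in double libraries and 19.3%, 12.9% and 14.3% in inv(3) libraries. It was 53.9%, 51.2% and 54.1% in Sf3b1 K700E libraries and 64.1%, 61.5% and 62.3% in control libraries. No library with inv(3) came near any library without it. The mean share was 11.35% in the 6 libraries with inv(3) and 57.9% in the 6 without, a difference of -46.5 percentage points, given without a test because the members were chosen with their levels known. Within the inv(3) background the double libraries had the lower share, 7.20% ± 0.703 against 15.5% ± 3.37 in inv(3) libraries, and without inv(3) the share was 53.1% ± 1.62 in Sf3b1 K700E against 62.6% ± 1.35 in control libraries (SD, n = 3 each), with no overlap in either pair.

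Within beta-globin, Hbb-b2 and Hbb-bt together took 80.8%, 89.8% and 88.6% of the counts in double libraries and 75.6%, 90.6% and 83.0% in inv(3) libraries. They took 19.3%, 21.0% and 21.1% in Sf3b1 K700E and 38.2%, 29.2% and 32.8% in control libraries. The mean was 84.7% in the 6 libraries with inv(3) and 26.9% in the 6 without, a difference of 57.8 percentage points with no overlap. Since these rows were already known to differ between the groups, the share is given without a test. It also depends on how reads of near-identical copies were placed. Sf3b1 K700E and control had this in common, that most beta reads fell to Hbb-b1 and Hbb-bs, although summed beta-globin differed about 10.3-fold between them.

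**Figure D2:**
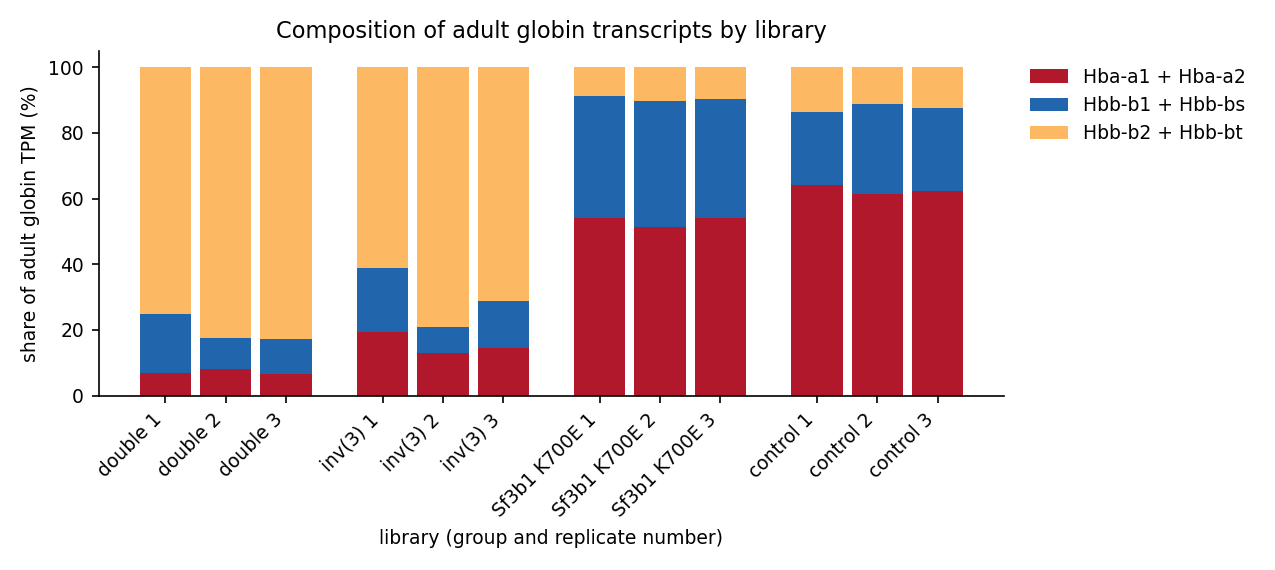
Share of adult globin TPM (%) taken by Hba-a1 with Hba-a2, Hbb-b1 with Hbb-bs and Hbb-b2 with Hbb-bt in each of the 12 libraries, as bars stacked to the whole. Alpha-globin takes 6.68% to 19.3% in the double and inv(3) libraries and 51.2% to 64.1% in the Sf3b1 K700E and control libraries.

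The neighborhoods of the genes were nearly silent on the beta side. Within 100000 bases of Hbb-bt lie 10 olfactory receptor genes, none with more than 2 counts in any library. The embryonic beta-type genes had at most 4 counts (Hbb-y), 1 count (Hbb-bh1) and 0 counts (Hbb-bh2) in any library, and embryonic Hba-x at most 1. Hbq1b, a theta-globin gene of the alpha cluster, summed to 29.54 counts in double, 12.94 in inv(3), 5.26 in Sf3b1 K700E and 3.41 in control libraries, too few to pass the filter. Nprl3, the neighbor of the alpha genes whose introns hold their main enhancers, lay between 19.6 and 26.8 CPM over all libraries.

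Car2 and Trim10 fell in both groups with inv(3), against control, where no globin sum was called lower. Car2, the carbonic anhydrase that hydrates carbon dioxide and is among the first red cell proteins to appear in progenitors, had 7010, 3813 and 5276 counts in double, 2010, 2939 and 4546 in inv(3), 22825, 24415 and 23344 in Sf3b1 K700E and 17818, 18026 and 19741 in control libraries. The double and inv(3) libraries overlapped each other and lay entirely below the other 2 groups. Means were 67.6 ± 17.1 CPM in double, 41.0 ± 14.8 in inv(3), 283 ± 28.7 in Sf3b1 K700E and 235 ± 8.03 in control libraries (SD, n = 3 each). Car2 fell to 0.288 times control in double (log2 -1.80 ± 0.24, adjusted p = 0.00017) and to 0.175 times control in inv(3) libraries (log2 -2.52 ± 0.25, adjusted p = 2.6e-05). It was 0.239 times as high in double as in Sf3b1 K700E (log2 -2.07 ± 0.24, adjusted p = 5.2e-05). Sf3b1 K700E against control gave log2 0.27 ± 0.23 (adjusted p = 0.50). Double against inv(3) gave log2 0.72 ± 0.24 with an adjusted p of 0.052. That value lay between 0.011 (without the third inv(3) library) and 0.19 when 1 library was left out. It passed the limit under DESeq2 (0.031), limma-voom (0.038) and with a mean of at least 5 CPM (0.046). Under the other alternatives it did not, with adjusted p up to 0.14.

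Trim10, a tripartite-motif protein of erythroid cells linked to their terminal differentiation, was scarce everywhere, with 6, 2 and 9 counts in double, 5, 13 and 17 in inv(3), 94, 121 and 95 in Sf3b1 K700E and 103, 99 and 115 in control libraries. Every library with inv(3) had at most 17 counts, and every library without it at least 94. Trim10 averaged 0.0721 ± 0.0464 CPM in double, 0.151 ± 0.0758 in inv(3), 1.25 ± 0.272 in Sf3b1 K700E and 1.34 ± 0.0849 in control libraries (SD, n = 3 each). It fell to 0.0549 times control in double (log2 -4.19 ± 0.42, adjusted p = 1.2e-05) and to 0.115 times control in inv(3) libraries (log2 -3.13 ± 0.37, adjusted p = 6.1e-05). Double against Sf3b1 K700E gave log2 -4.09 ± 0.42 (adjusted p = 1.2e-05), and Sf3b1 K700E against control log2 -0.10 ± 0.31 (adjusted p = 0.87).

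Counted over the 8 member rows, of which Hbb-b2 and Hbb-bt are 1 measurement, no row was called in double against inv(3), where 13.4% of all tested genes were higher and 9.13% lower. In double against Sf3b1 K700E, 2 rows were higher and 5 lower, where 25.7% and 23.5% of all tested genes were called. In double against control, 4 rows were higher and 3 lower (all tested genes: 20.8% and 20.4%). In inv(3) against control, 4 rows were higher and 2 lower (18.4% and 20.3%), the Hbb-b1 call ending under limma-voom (adjusted p = 0.08) and in some fits without 1 library. In Sf3b1 K700E against control, 5 rows were higher and 0 lower, where 3.94% of all tested genes were higher and 4.9% lower. Hba-a2, listed at 0 in every control library, was among the higher rows in each comparison against control. Summed alpha-globin was called higher only in Sf3b1 K700E (log2 2.79), not in inv(3) (log2 -0.13) or double (log2 -0.49). The median log2 change of the 8 rows was 0.66, -2.18, 0.75, 0.52 and 2.68 in the 5 comparisons, in the order above. Over all tested genes the medians were 0, 0.03, 0, 0 and -0.01. The medians of the 8 rows hold the Hbb-b2 and Hbb-bt measurement in 2 rows. Against control they also include Hba-a2, whose fitted change gives no size, so they are not read as a rise or fall of the members as a set.

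**Figure D3:**
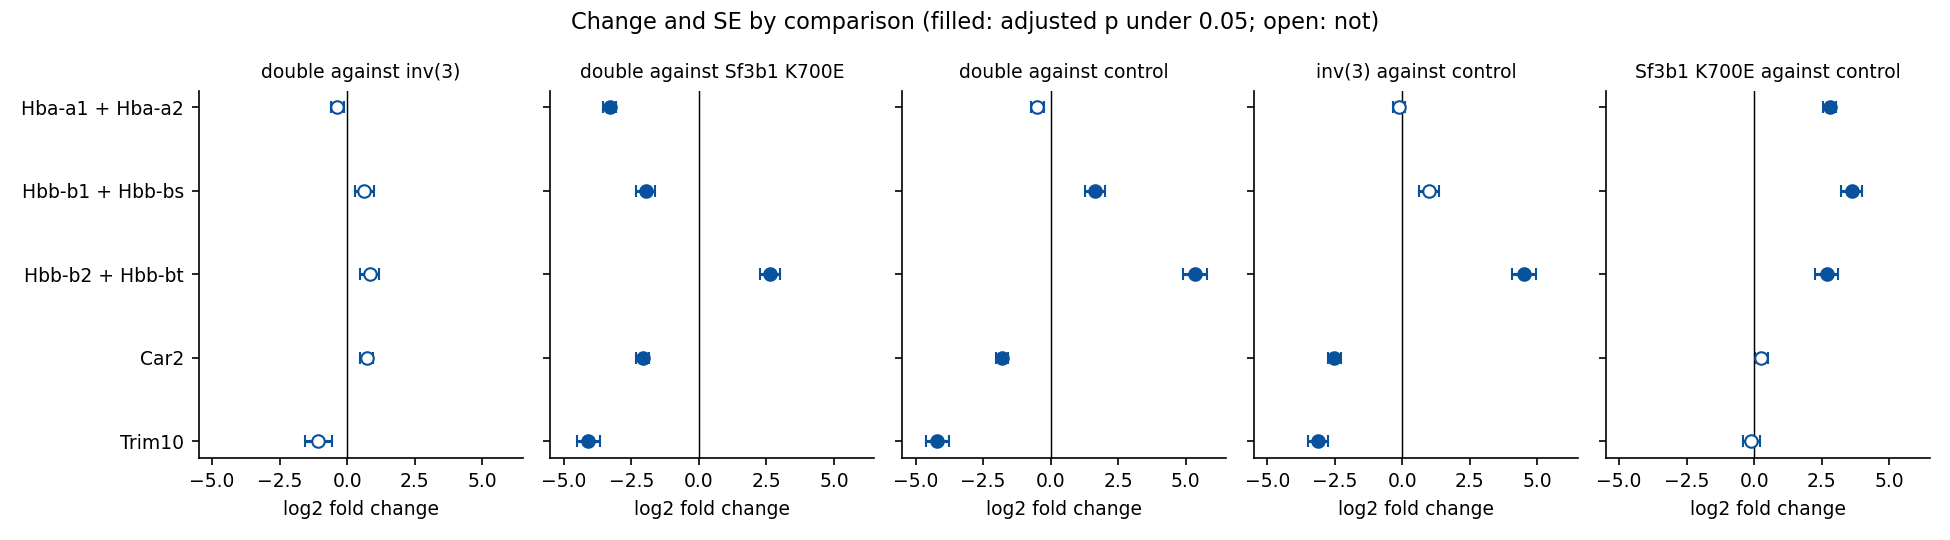
Log2 fold change (x axis) with its standard error for the 3 globin sums, Car2 and Trim10 in 5 comparisons, the first named group over the second; filled points passed an adjusted p of 0.05 over all tested genes. In double against Sf3b1 K700E, Hbb-b2 with Hbb-bt is at 2.65 whereas alpha-globin, Hbb-b1 with Hbb-bs, Car2 and Trim10 lie between -4.09 and -1.97, and in Sf3b1 K700E against control the globin sums lie between 2.68 and 3.61 with Car2 and Trim10 not called.

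Whether the change with inv(3) differed in the presence of Sf3b1 K700E was tested as an interaction. This was the log2 change of double against Sf3b1 K700E minus that of inv(3) against control. Since the inv(3) group enters it, the sex of the cells and the genotype cannot be told apart here. Of the 8 rows, 0 were called higher and 3 lower, Hba-a1, Hba-a2 and Hbb-b1 (a call that ended without any of 5 single libraries, adjusted p up to 0.088), where 0.4% of all tested genes were called higher and 0.436% lower. Summed alpha-globin gave log2 -3.15 ± 0.33 (adjusted p = 0.0013), the double group having little of it and the Sf3b1 K700E group much. Leaving out any 1 library kept this call, with adjusted p from 0.0002 to 0.009. Summed Hbb-b1 and Hbb-bs gave log2 -2.97 ± 0.52 (adjusted p = 0.031), a call that ended without 7 of the 12 libraries (up to 0.092). Summed beta-globin gave log2 -2.56 ± 0.49 (adjusted p = 0.044), a call that ended without 9 of the 12 libraries (up to 0.12). No interaction was called for summed Hbb-b2 and Hbb-bt (log2 -1.84 ± 0.54, adjusted p = 0.14, and 0.024 without the first inv(3) library), Car2 (log2 0.45 ± 0.33, adjusted p = 0.55) or Trim10 (log2 -0.96 ± 0.59, adjusted p = 0.46).

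Most genes of the red cell membrane and skeleton were lower, as Car2 and Trim10 were, in the groups with inv(3). Of 18 red cell membrane and skeleton genes, 16 were lower in double than in Sf3b1 K700E and 16 were lower in double than in control. In inv(3) against control 15 were lower, and none was higher in any of these comparisons. The medians were log2 -2.54, -2.22 and -2.11, in the same order. Of all tested genes, 23.5%, 20.4% and 20.3% were lower. The beta-spectrin gene Sptb fell by 4.58 on the log2 scale in double against control (SE 0.44, adjusted p = 1.3e-05) and gave log2 -3.52 ± 0.41 in inv(3) against control (adjusted p = 6.3e-05). Epb4.2, which codes for protein 4.2, gave log2 -4.20 ± 0.39 in double against control (adjusted p = 6.6e-06). In Sf3b1 K700E against control 0 of the 18 were called in either direction (median log2 -0.01), and Slc4a1, the band 3 anion exchanger, had the smallest p (log2 1.66 ± 0.51, adjusted p = 0.065).

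Of 10 early erythroid genes, 8 were lower and 1, Apoe, higher in double against control, and 8 lower and 1, again Apoe, higher in inv(3) against control. Tfrc, the transferrin receptor, was among the lower genes in double but was not called in inv(3) (adjusted p = 0.074), and Vamp5 was among them in inv(3) but not in double (adjusted p = 0.98). Only Vamp5 was higher in Sf3b1 K700E against control. Smim1, the Vel blood group gene, gave log2 -4.28 ± 0.43 in double (adjusted p = 1.4e-05) and -2.80 ± 0.38 in inv(3) against control (adjusted p = 0.00016). Of 12 terminal maturation genes, 1 was higher and 7 lower in double, 7 lower in inv(3) and none called in Sf3b1 K700E, each against control. Of all tested genes, 20.8% were higher and 20.4% lower in double, and 18.4% and 20.3% in inv(3). In Sf3b1 K700E against control the shares were 3.94% and 4.9%. Trim58, an E3 ligase of late erythroblasts, gave log2 -2.45 ± 0.26 in double (adjusted p = 1.8e-05) and -2.79 ± 0.26 in inv(3) against control (adjusted p = 1.3e-05).

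Heme synthesis was split between a single gene and the rest. Alas2, the erythroid form of the first enzyme of the pathway, averaged 0.0693 ± 0.0561 CPM in double, 0.230 ± 0.145 in inv(3), 3.05 ± 1.198 in Sf3b1 K700E and 0.319 ± 0.0949 in control libraries (SD, n = 3 each), an order of groups shared with alpha-globin. It was 9.48-fold higher in Sf3b1 K700E than in control (log2 3.24 ± 0.45, adjusted p = 0.0049), and its interaction was called (log2 -4.99 ± 0.77, adjusted p = 0.015). Of the 11 heme genes, 1 was higher and 6 lower in double and 2 higher and 4 lower in inv(3), each against control. In Sf3b1 K700E against control 1 was higher (Alas2) and 3 lower. The shares of all tested genes in these comparisons are those given above. Cpox, which makes protoporphyrinogen, gave log2 -0.64 ± 0.05 in double against control (adjusted p = 1.8e-06), and Alas1, the enzyme form of all tissues, gave log2 0.55 ± 0.09 in inv(3) (adjusted p = 0.00042) and -0.39 ± 0.09 in Sf3b1 K700E against control (adjusted p = 0.021).

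Of 14 regulators of globin genes, 4 were higher and 5 lower in double and 2 higher and 6 lower in inv(3), each against control. Of all tested genes, 20.8% were higher and 20.4% lower in double, and 18.4% and 20.3% in inv(3). In Sf3b1 K700E against control 1 regulator was higher, where 3.94% of all tested genes were. Gata1, the master erythroid factor, gave log2 -1.32 ± 0.24 in double (adjusted p = 0.0011) and -1.83 ± 0.24 in inv(3) (adjusted p = 0.00017), and Klf1, which binds the CACCC box of adult beta-globin, gave -1.65 ± 0.38 (adjusted p = 0.005) and -1.63 ± 0.38 (adjusted p = 0.0055). Tal1, a partner of GATA1, gave log2 -1.03 ± 0.12 in double (adjusted p = 5.5e-05), -1.48 ± 0.12 in inv(3) (adjusted p = 6.5e-06) and 0.45 ± 0.12 in Sf3b1 K700E (adjusted p = 0.039), each against control. Nfe2, which binds the beta-globin locus control region, rose in double (log2 0.61 ± 0.05, adjusted p = 2.7e-06) and in inv(3) libraries (log2 0.37 ± 0.05, adjusted p = 0.00016). Sox6, a repressor of embryonic globin genes, was 2.40-fold higher in double than in inv(3) (log2 1.26 ± 0.16, adjusted p = 0.00078). In that comparison 7 of the 14 regulators were higher and none was lower, where 13.4% of all tested genes were higher and 9.13% lower. No member was called there in the main fit.

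**Figure D4:**
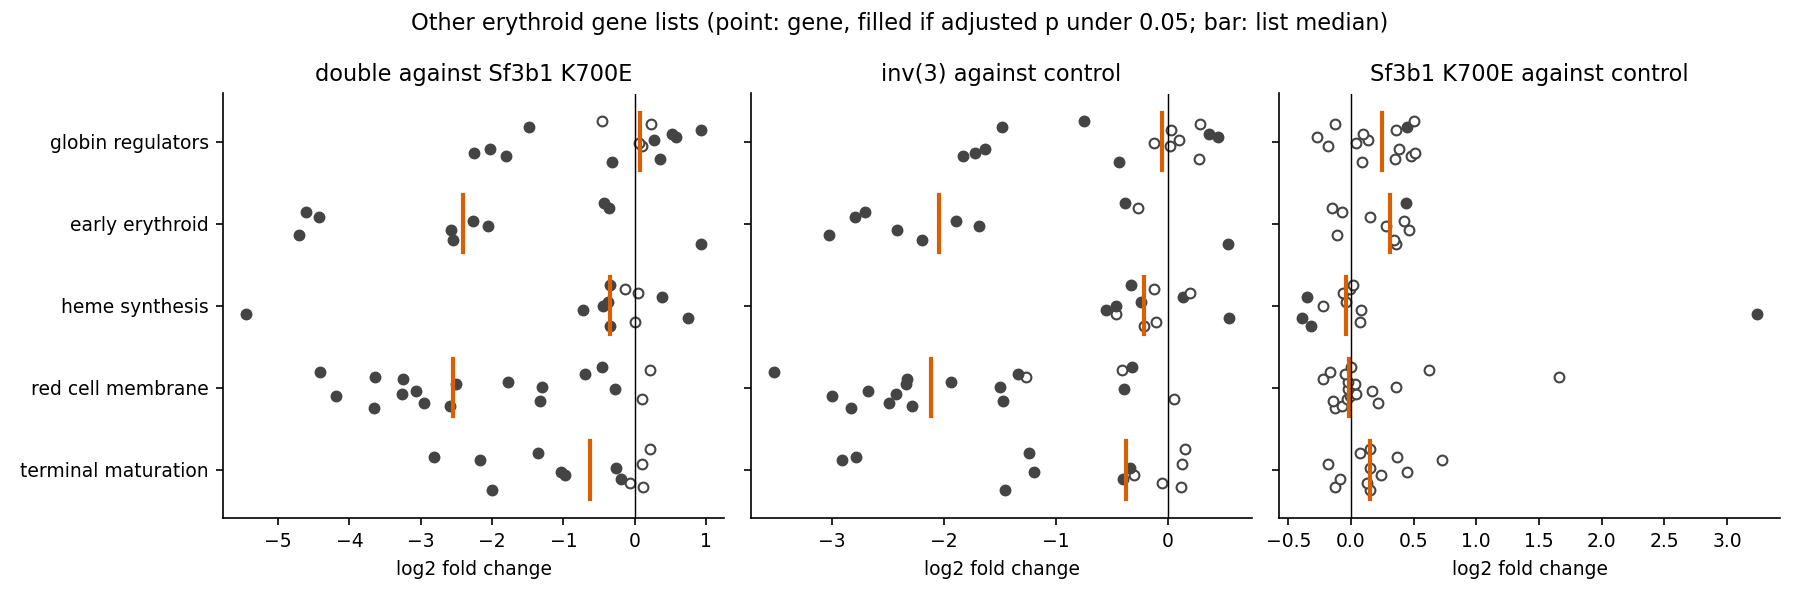
Log2 fold change of each gene of 5 erythroid lists in 3 comparisons (first named group over the second, with an axis range of its own in each panel); points are genes, filled where the adjusted p was under 0.05, and bars are list medians. The medians of red cell membrane genes are -2.54 in double against Sf3b1 K700E, -2.11 in inv(3) against control and -0.01 in Sf3b1 K700E against control, where Alas2 stands apart at 3.24.

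Markers of other cells also differed between the groups, and not always in the direction of the globins. The summed level of 16 macrophage genes lay between 125 and 155 CPM in double libraries and between 151 and 208 CPM in inv(3) libraries; it was 625 to 882 CPM in Sf3b1 K700E and 476 to 569 CPM in control libraries, none of the 16 being at 0 in every library of a group. Of 15 tested, 12 were higher and 0 lower in Sf3b1 K700E against control, where 3.94% of all tested genes were higher. In double against Sf3b1 K700E, where 23.5% of all tested genes were lower, 0 of the 15 were higher and 15 lower. Among them Mrc1, the mannose receptor, averaged 8.73 ± 2.76 CPM in double, 10.9 ± 1.35 in inv(3), 46.6 ± 16.9 in Sf3b1 K700E and 12.3 ± 2.16 in control libraries (SD, n = 3 each). Its interaction was called (log2 -2.24 ± 0.39, adjusted p = 0.028), as was that of Adgre1, the F4/80 antigen (log2 -1.51 ± 0.17, adjusted p = 0.002), and of the 15 tested no other was. Adgre1 was higher in inv(3) than in control (log2 0.57 ± 0.12, adjusted p = 0.0034), where 10 of the 15 were lower, and Vcam1, Cd163 and Slc40a1 were not called in Sf3b1 K700E against control. Within the Sf3b1 K700E group, alpha-globin and the macrophage sum put the libraries in 1 order, with 72.7, 94.2 and 48.8 CPM of alpha-globin beside 678, 882 and 625 CPM of macrophage genes. In each other group the library with the highest macrophage sum had the lowest alpha-globin: 155 beside 6.73 CPM in double, 208 beside 7.22 CPM in inv(3) and 569 beside 8.71 CPM in control. The part of macrophage RNA in the globin results was not tested.

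Summed red cell membrane genes lay between 316 and 340 CPM in double and 305 and 362 CPM in inv(3) libraries, against 621 to 638 CPM in Sf3b1 K700E and 607 to 622 CPM in control, so the groups richest in Hbb-b2 and Hbb-bt were the poorest in these genes. Of the other lists, 10 neutrophil genes summed to between 2525 and 3739 CPM in double and 4467 and 5484 CPM in inv(3) libraries, against 1167 to 2209 CPM in Sf3b1 K700E and 1388 to 2077 CPM in control. Megakaryocyte genes summed to between 38.8 and 71.8 CPM in double and 31.1 and 58.4 CPM in inv(3) libraries, against 193 to 281 CPM in Sf3b1 K700E and 164 to 206 CPM in control. Mast cell and basophil genes summed to 131 to 149, 156 to 194, 518 to 579 and 533 to 551 CPM and B-lymphoid genes to 32.6 to 33.6, 26.5 to 33.6, 26.9 to 28.6 and 24.5 to 26.2 CPM in the double, inv(3), Sf3b1 K700E and control groups. The part of these shifts in the members' values was not tested.

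**Figure D5:**
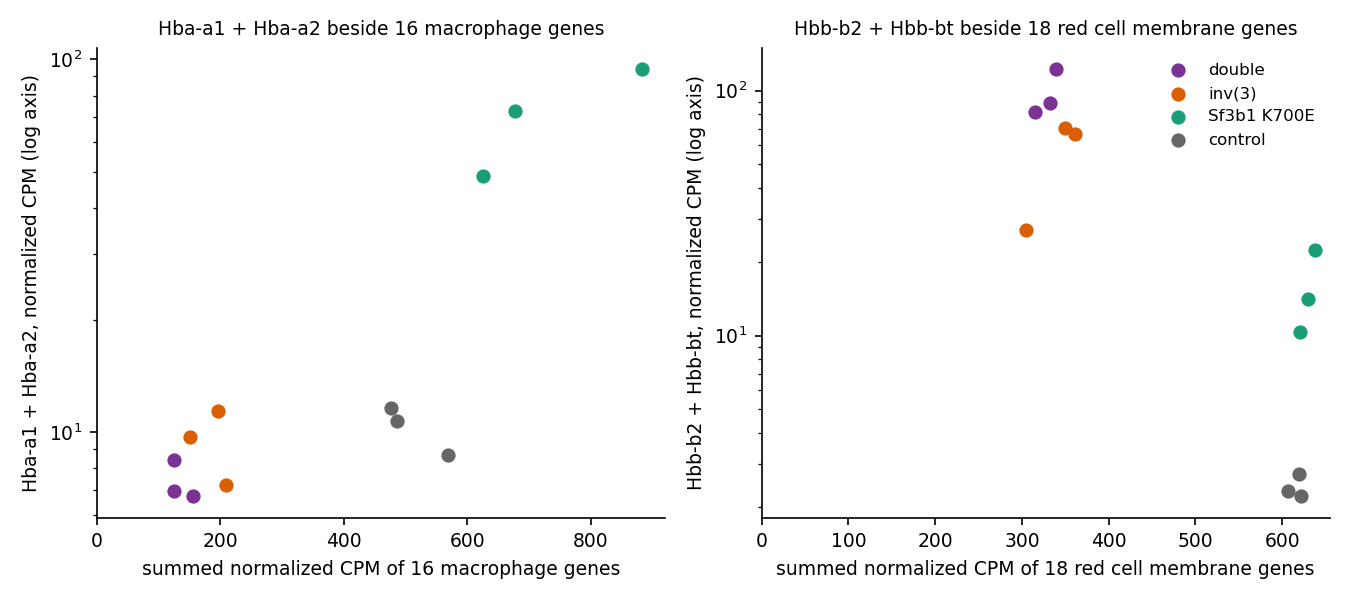
Left, summed alpha-globin (y, normalized CPM, log axis) against the sum of 16 macrophage genes (x, CPM); right, summed Hbb-b2 and Hbb-bt (y, log axis) against the sum of 18 red cell membrane genes (x, CPM), with 1 point per library and color for the donor genotype. Sf3b1 K700E libraries hold 625 to 882 CPM of macrophage genes with 48.8 to 94.2 CPM of alpha-globin, and the double and inv(3) libraries hold 305 to 362 CPM of membrane genes with 26.9 to 122 CPM of Hbb-b2 and Hbb-bt.

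The genes whose levels most resembled each pattern were taken from 11532 candidates by Pearson's r of log2(CPM + 0.5) over the 12 libraries, which share their group structure, so r is a description. For Trim10 these were Epb4.2 (0.991), Fam109b and Mmp14 (0.987 each), and Sh2d4a, Klhdc2 and Sptb (0.986 each). For Car2 they were Aldh1a7 (0.990), Cela1 (0.987), Tspan33, Gata1 and Wdr59 (0.985 each) and S100a10 (0.983), and Gata1 itself averaged 11.5 CPM in double, 8.06 in inv(3), 40.02 in Sf3b1 K700E and 28.7 in control libraries. Summed adult globin was best matched by Sh3bgrl2 (0.943), Ctnna1 (0.935), Zmat3 (0.913), Slfn5 (0.905), Ube2e3 and Nqo1 (0.900 each), with no erythroid list gene among them.

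With the globin sums taken apart, a choice made after seeing the data, different genes came first. Alpha-globin was matched by Hpgd (0.982), Kcnj10 (0.973), Abcg3 (0.965), Sema6d (0.960), Mrc1 (0.959) and Maf (0.956). Of these, Mrc1 is on the macrophage list. Kcnj10, a potassium channel gene, averaged 0.834 CPM in double, 1.03 in inv(3), 10.2 in Sf3b1 K700E and 1.79 in control libraries. Hbb-b2 with Hbb-bt was matched by Epb4.1l1 (0.985), Marveld2 (0.982), Timp2 (0.974), Zbtb9 (0.969), and Foxred2 and Eps8l2 (0.966 each). Timp2, an inhibitor of matrix metalloproteinases, averaged 36.0 CPM in double, 24.9 in inv(3), 18.2 in Sf3b1 K700E and 11.9 in control libraries.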

How the data were processed

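Poly(A)-selected RNA was made into unstranded TruSeq libraries, per the labels' protocols. Each library's deposited table is laid out as RSEM output, per the file headers, and holds expected counts (estimated fragments per gene, not normalized), TPM and an effective length. The genome build mm10 and the tool bcl2fastq are known from the submitters' processing notes; the sources used here name no aligner or version. TPM values deposited by the authors were used for shares within a library, and effective length as an offset in 1 alternative.

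Groups came from the labels. Expected counts were rounded, filtered with filterByExpr by group (13755 of 24411 rows kept), TMM-scaled and analysed in edgeR 4.0.16 under R 4.3.3 (robust quasi-likelihood, 12 libraries in 1 model, 8 residual degrees of freedom), with Benjamini-Hochberg adjustment of two-sided p-values across all tested genes and a limit of 0.05. SE is the log2 change over the square root of F. Normalized CPM is CPM with the library size multiplied by its TMM factor. Near-identical copies were summed and the model refitted. Shares are given per library, and the planned permutation test of them is not used, since they were chosen with levels known. Promoters and positions are from RefSeq GRCm38.p6 (5 of 9 members had a promoter entry), transcripts from GENCODE M21, aligned with Biopython 1.88. Totals of 73074797 to 86555638 counts per library leave counting error small for all but the rarest rows. The unstranded reads do not part a gene from an antisense partner.

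The members, gene lists, tests and rule for naming genes were chosen with earlier results of these data known. Genes named from a list are those with the smallest p in a comparison, besides Gata1, Klf1, Mrc1, Apoe, Tfrc and Alas2, which were named for their role or values. The result of 1 list gene that the rule names is not reported here. The lists were globin regulators, heme synthesis, red cell membrane, terminal maturation, early erythroid, other globins and markers of macrophages, neutrophils, B-lymphoid cells, megakaryocytes, mast cells and basophils.

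Tested on simulated data for inv(3) against control (13587 genes), the fit recovered 92.3% and 76.9% of genes lowered by 2 and 1 log2 units and 80%, 97.5% and 100% of those raised by 1, 2 and 4, and called 0.045% of 13389 unchanged genes. Only a small set of genes was changed there, in the inv(3) group alone, whereas 38.7% of tested genes were called in the data. Reads shared between near-identical copies were not simulated, so these rates were not tested for data of that kind. Results were recomputed with other tools (DESeq2 1.42.0; voom in limma 3.58.1), other scaling (RLE; TMM after removing the 100 most abundant genes), other filters (none; mean CPM of 5 or more), other models (only the 2 groups compared; replicate number as block; log effective length as offset), and with each library left out in turn. Summing the beta-globin rows as 2 pairs, and fitting the 9 libraries with Y-linked RNA alone, were added after the data were seen.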

Additional observations from a re-analysis of the deposited data

Results flagged for a closer look

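The log2 change with inv(3) differed with the presence of Sf3b1 K700E for 3 member rows and 3 sums, by the interaction test. That test takes double against Sf3b1 K700E minus inv(3) against control (edgeR, Benjamini-Hochberg over all tested genes). Since the inv(3) group enters it, the sex of the cells and the genotype cannot be told apart in this test. For Hba-a1 the difference was -3.15 on the log2 scale (SE 0.32, adjusted p = 0.001) and for Hbb-b1 -3.22 (SE 0.53, adjusted p = 0.023, but 0.052 with no low-count filter and up to 0.088 without 1 library). The fitted value of -11.25 for Hba-a2 (adjusted p = 0.011) depends on the prior count, since all 3 control libraries were listed at 0, and it gives no size. Summed alpha-globin differed by -3.15 (adjusted p = 0.0013), summed Hbb-b1 and Hbb-bs by -2.97 (adjusted p = 0.031) and summed beta-globin by -2.56 (adjusted p = 0.044). Xist gave an interaction of log2 -8.28 ± 0.53 (adjusted p = 2.6e-05) and Mrc1 of -2.24 ± 0.39 (adjusted p = 0.028), and their part in the globin values was not tested. Groups of 3 libraries were not tested for a single library standing apart.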

How the results depend on the processing

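The alpha share of adult globin TPM (difference between -48.1 and -45.26 percentage points without 1 library) and the share of Hbb-b2 and Hbb-bt (56.26 to 60.04) kept their direction under every alternative run. The rise of summed beta-globin in all 3 mutant groups against control kept its direction and its side of the limit under each. So did the rise of summed alpha-globin in Sf3b1 K700E against control and its interaction (without 1 library, log2 2.57 to 3.01 and -3.37 to -2.94). The summed beta-globin interaction gave -2.59 with no filter (adjusted p = 0.093), -2.43 with limma-voom (adjusted p = 0.095) and -2.85 to -2.27 without 1 library (adjusted p from 0.0054 to 0.12). Summed alpha-globin gave -0.50 in double against control with the compared groups alone, and without 1 library -0.61 to -0.40 there and -0.29 to 0.02 in inv(3) against control. The number of member rows called was 3 under limma-voom in Sf3b1 K700E against control. In double against inv(3) it was 1 under DESeq2, 1 with a mean of at least 5 CPM, 3 under limma-voom and 0 to 1 without 1 library. For the interaction it was 5 under DESeq2 and 2 to 5 without 1 library. Signs changed without 1 library for Hba-a2 in double against inv(3) (-0.25 to 0.85), Hbb-bs in double against control (-1.42 to 1.06) and for the interaction (-1.94 to 6.64), and Trim10 in Sf3b1 K700E against control (-0.27 to 0.03), none of them called in the main comparison. The causes were not tested.

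The replicate numbers were not seen to pair the libraries. Over 9339 genes, same-numbered libraries of different groups correlated at -0.81 to 0.60 in their deviations from the group means, and differently numbered ones at -0.56 to 0.74. Of the 12 libraries, 0 correlated best with its own number. Deviations within a group of 3 libraries are tied to each other, so this check cannot exclude a pairing. With the replicate block, the summed beta-globin interaction was -2.51 (adjusted p = 0.064) and summed Hbb-b1 and Hbb-bs gave -2.98 (adjusted p = 0.066). The counts of member rows called stayed at 0, 7, 7, 6, 5 and 3 in the order double against inv(3), Sf3b1 K700E and control, inv(3) against control, Sf3b1 K700E against control and the interaction. In the 9 libraries with Y-linked RNA, an alternative chosen after seeing the data, summed alpha-globin gave 2.79 in Sf3b1 K700E against control (adjusted p = 0.0016). Double against Sf3b1 K700E gave -3.29 there (adjusted p = 1.7e-06). These libraries still differed in Xist, as given above. Values of Trim10 and Hbb-bs, with 0 counts in some libraries for the second, are limited by depth, and those of Hbb-bs also by uncertain placement of reads.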
